A study of Mus musculus with 6 samples.

Results

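The 9 genes described here encode hepatokines and other secreted metabolic hormones: Fgf21, Gdf15, Angptl4, Angptl6, Fst, Inhbe, Fetub, Ahsg and Rbp4. They were found by gene symbol in the array annotation, and the list of symbols was drawn up with earlier results of these data known. They are 9 of the 24239 named genes on the array and of the 13284 named genes that were tested. Each had 1 probe, so 9 of 55681 probes were used, and all 9 were well above background on all 6 arrays. The mice were B6C3F1 males, 7 weeks old per the labels, the hybrid strain much used in rodent carcinogenicity tests. The control mice (n = 3) received corn oil and the treated mice (n = 3) received TCE (trichloroethylene, a chlorinated solvent) dissolved in corn oil at 1000 mg/kg b.w. per day by gavage, both for 5 days. The liver was taken after the last dose, and RNA of each mouse was hybridized to 1 Agilent array with Cy3 as the only dye. All mice carried the same background and no engineered allele is named in the labels.

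Hepatokines are proteins that hepatocytes release into blood and that act on fat, muscle, brain or the liver itself. FGF21 and GDF15 are hormones of energy balance and stress, of which FGF21 signals through FGF receptors with beta-Klotho and GDF15 through GFRAL in the hindbrain. ANGPTL4 inhibits lipoprotein lipase, and follistatin binds activins, the dimers that the inhibin beta genes encode. Fetuin-A, fetuin-B and retinol-binding protein 4 are abundant plasma proteins of the liver. Fgf21 and Angptl4 are textbook targets of PPAR alpha, and Gdf15 and Fgf21 are both known as targets of stress-activated transcription factors. All 9 members (100%) carried an extracellular term in the deposited GO annotation, against 6.4% of all genes tested, which follows from choosing secreted proteins and is not a result.

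Sequences upstream of the start of transcription are shown for the genes whose probes carried the largest changes, Fgf21 and Gdf15, and for Inhbe, which shares a motif with Fgf21 but did not pass the test. They are from RefSeq windows on GRCm38.p6, of which the 250 bases before the start are printed. The windows searched also ran past the start, as for Fgf21 (chr7:45615441-45615740). Of the 9 members 7 had such a window, with 10 windows in all. Angptl4 and Fst had no entry. The capitals mark matches to the motifs that were searched on both strands. These were AGGTCA (a nuclear receptor half-site), direct repeat 1 (DR1) of that half-site, TGATGNAA (the core that ATF4 and CEBP factors bind), TGACGTCA (the cyclic AMP response element) and CACGTG (the E-box).
Fgf21, chr7:45615491-45615740, minus strand: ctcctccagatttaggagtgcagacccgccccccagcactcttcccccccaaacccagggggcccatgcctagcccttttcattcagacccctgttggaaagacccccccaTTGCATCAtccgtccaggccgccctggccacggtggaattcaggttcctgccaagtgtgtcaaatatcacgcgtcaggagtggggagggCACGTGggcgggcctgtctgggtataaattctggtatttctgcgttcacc
Gdf15, chr8:70632096-70632345, minus strand: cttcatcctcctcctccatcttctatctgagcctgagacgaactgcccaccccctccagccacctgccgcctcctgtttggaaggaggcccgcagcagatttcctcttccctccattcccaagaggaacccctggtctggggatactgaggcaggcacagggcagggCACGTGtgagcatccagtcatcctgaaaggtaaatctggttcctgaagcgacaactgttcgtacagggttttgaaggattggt
Gdf15, chr8:70632457-70632706, minus strand: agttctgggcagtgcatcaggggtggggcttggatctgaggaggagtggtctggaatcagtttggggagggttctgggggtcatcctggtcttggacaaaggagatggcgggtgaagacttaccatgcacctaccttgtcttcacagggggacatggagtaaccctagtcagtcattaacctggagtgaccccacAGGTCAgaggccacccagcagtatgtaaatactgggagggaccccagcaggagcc
Inhbe, chr10:127351849-127352098, minus strand: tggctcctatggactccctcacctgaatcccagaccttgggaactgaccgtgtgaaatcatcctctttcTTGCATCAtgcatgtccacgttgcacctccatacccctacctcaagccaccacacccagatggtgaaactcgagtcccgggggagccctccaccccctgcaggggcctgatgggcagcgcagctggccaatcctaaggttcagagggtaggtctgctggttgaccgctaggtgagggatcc

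The Fgf21 window held TTGCATCA, the reverse complement of TGATGNAA, beginning 139 bases before the start, and CACGTG 50 bases before it. The Inhbe window held the same 8 letters 181 bases before its start. The windows of Gdf15 held CACGTG 83 bases before 1 start and AGGTCA 55 bases before the other. One window of Rbp4 held TGATGAAA 76 bases before its start, and the windows of Angptl6, Fetub and Ahsg held none of the 5 motifs. Of 32851 promoter windows, 3.97% held TGATGNAA, 7.15% held CACGTG, 16.3% held AGGTCA, 1.79% held TGACGTCA and 0.0396% held DR1, where a full direct repeat also counts as a half-site. The shares are over whole windows, with the bases after the start included. The matches describe letters only, and binding was not measured.

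Each value rests on 1 probe of 60 bases. The last 30 bases of the probes of the 3 genes that passed the test are shown, since they identify what was measured, with AATAAA (the polyadenylation signal) and ATTTA (the AU-rich pentamer) in capitals.
Fgf21 probe: ATTTAtcttATTTATTTAttttagtttttt
Gdf15 probe: actctgctAATAAAggtgagcttggtttct
Angptl4 probe: aggtgctaactgtggttcccaggcacagct

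The Fgf21 probe contained 4 copies of ATTTA over its whole length, as did 7 of the 55681 probes on the array, or 0.0126%, at 4 copies or more. AATAAA was present in the probes of Gdf15, Fst, Inhbe and Ahsg, so in 4 of 9 members (44.4%) and in 10.1% of all probes. The place of each probe in its transcript, exon or UTR, was not determined here.

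Signals are log2 intensities after quantile normalization, so that a difference of 1 is a 2-fold change. A gene was taken as changed when its p, adjusted by Benjamini and Hochberg's method after limma, was at most 0.05 together with a fold change of 2 or more. Of the 9 members, 3 rose (Fgf21, Gdf15 and Angptl4), 0 fell and 6 were not past the threshold. Of all 22731 probes tested, 1.41% were past it, 1.03% with higher signal in TCE mice and 0.383% with lower signal. Counted as genes by their brightest probe, 1.3% rose and 0.429% fell. Since the members were chosen with earlier results of these data known, the shares are given side by side without a test. The median log2 fold change was 0.02 over all probes tested. Among the members with lower signal 1, Fetub, had an unadjusted p under 0.05 by limma, as did 4073 of all probes in either direction. The count of members past the threshold was 0 when probes near background were tested as well (limma adjusted p of the 3 genes 0.0659 to 0.0825) and 0 by the methods' t-test after Benjamini-Hochberg adjustment (0.0676 to 0.0869). The RNA was of liver tissue and not of sorted cells, so that fewer cells of a type and less RNA per cell cannot be told apart.

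The hepatocyte markers, 8 of 8 detected and 0 past the threshold, had a summed log2 signal of 20.36 in all 3 control mice and 20.09 to 20.31 in TCE mice. That sum is carried by the bright Serpina1c (log2 difference -0.15) and Alb (-0.18). Cps1 (-0.42), Apob (-0.37), Apoa1 (-0.31) and Cyp3a11 (-0.16) were also lower. Tat (0.36) and Hnf4a (0.09) were higher, and the median of the list was -0.17. Of the 6 adipocyte markers only Car3 was detected, while Adipoq, Plin1, Cfd, Lep and Retn were not well above background. Blood and immune cell markers, 7 of 7 detected and 0 past the threshold, summed to 15.38 to 15.71 in control and 14.11 to 15.52 in TCE mice. This sum is carried by the bright Hbb-b1 (log2 difference -0.61) and Alas2 (-0.91, limma adjusted p = 0.0215, under 2-fold). Of the others, Cd3e was lower (-0.63), while S100a8 (1.19), Ptprc (0.65), Cd79a (0.40) and S100a9 (0.26) were higher, and the median of the list was 0.26. Sinusoidal endothelial markers, 6 of 6 detected and 0 past the threshold, summed to 14.49 to 14.54 in control and 13.64 to 14.61 in TCE mice. The part of cell composition in the results below was not tested. The array of control mouse 1 sat alone on its slide and was scanned apart from the other 5, which shared a slide. Values within the shared slide thus compare 2 control with 3 TCE mice.

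Fgf21, the fasting hormone of the liver, showed the largest change of the 9 genes. Its probe lies at chr7:52869305-52869364 of mm9, minus strand. The log2 signals were 9.09, 7.96 and 8.43 in control mice 1 to 3 and 11.62, 12.44 and 11.56 in TCE mice 1 to 3. The groups did not overlap, and the lowest TCE mouse lay 2.47 above the highest control mouse. TCE mouse 2 was the highest of all mice, and the control mice spread over more than 1 log2 unit. Group means were 8.49 ± 0.57 and 11.87 ± 0.49 (SD, n = 3 each), a rise of 3.38 ± 0.36 on the log2 scale (SE, limma adjusted p = 0.0115). This is 10.4-fold, with a 95% confidence interval of 5.74 to 18.9. Against the control mean the TCE mice were 8.73-fold, 15.4-fold and 8.38-fold higher, so the rise in each of them was larger than the spread of the control mice. A larger rise was seen for 33 probes, or 0.145% of those tested. Within the shared slide the log2 fold change was 3.68 (limma adjusted p = 0.0212). Without control mouse 3 it was 3.35 and the call was lost (limma adjusted p = 0.0569).

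Gdf15, which encodes a stress hormone of the TGF-beta family that lowers food intake, followed, with its probe at chr8:73153293-73153352 of mm9, minus strand. The log2 signals were 9.02, 9.28 and 8.47 in control mice and 11.52, 12.27 and 11.40 in TCE mice. As for Fgf21, every TCE mouse was above every control mouse, here by at least 2.12, and TCE mouse 2 was the highest. The mean rose from 8.92 ± 0.41 to 11.73 ± 0.47 (SD, n = 3 each). The log2 fold change was 2.81 ± 0.30 (SE, limma adjusted p = 0.0123), which is 7.00-fold with a 95% confidence interval of 4.22 to 11.6. In single TCE mice the rise was 6.05-fold, 10.2-fold and 5.57-fold, again the largest in mouse 2. A larger rise was seen for 65 probes, 0.286% of those tested. Leaving out any 1 mouse kept the call, with adjusted p from 0.027 to 0.0499 by limma, of which the highest was that within the shared slide, at a log2 fold change of 2.85.

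Angptl4 encodes a secreted inhibitor of lipoprotein lipase and was measured at chr17:33911880-33911939 of mm9, minus strand. The log2 signals were 15.19, 15.34 and 15.27 in control mice and 16.24, 16.49 and 16.18 in TCE mice. The groups were narrow and lay 0.84 apart, with TCE mouse 2 again the highest after normalization. Before normalization TCE mouse 2 had the lowest processed intensity of the TCE mice. Group means were 15.27 ± 0.07 and 16.30 ± 0.16 (SD, n = 3 each), a rise of 1.04 ± 0.13 on the log2 scale (SE, limma adjusted p = 0.0191). The fold change was 2.05, with a 95% confidence interval of 1.66 to 2.54 that includes the limit of 2. In single TCE mice it was 1.97-fold, 2.33-fold and 1.89-fold, so that only TCE mouse 2 was itself over 2-fold. A larger rise was seen for 456 probes, 2.01% of those tested. The direction was the same with any 1 mouse left out, while the call, close to the threshold in both the fold change and the adjusted p, was lost in 5 of 6 cases. Within the shared slide, which leaves out control mouse 1, the log2 fold change was 1.00 (limma adjusted p = 0.0734). It was 1.07 without control mouse 2 (limma adjusted p = 0.0864), 1.04 without control mouse 3 (limma adjusted p = 0.0777) and 1.07 without TCE mouse 1 (limma adjusted p = 0.0744). Without TCE mouse 2 it was 0.95 (limma adjusted p = 0.0388), which is under 2-fold, as was the value of 0.94 with normexp background correction, and without TCE mouse 3 the call held at 1.10 (limma adjusted p = 0.041).

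**Figure D1:**
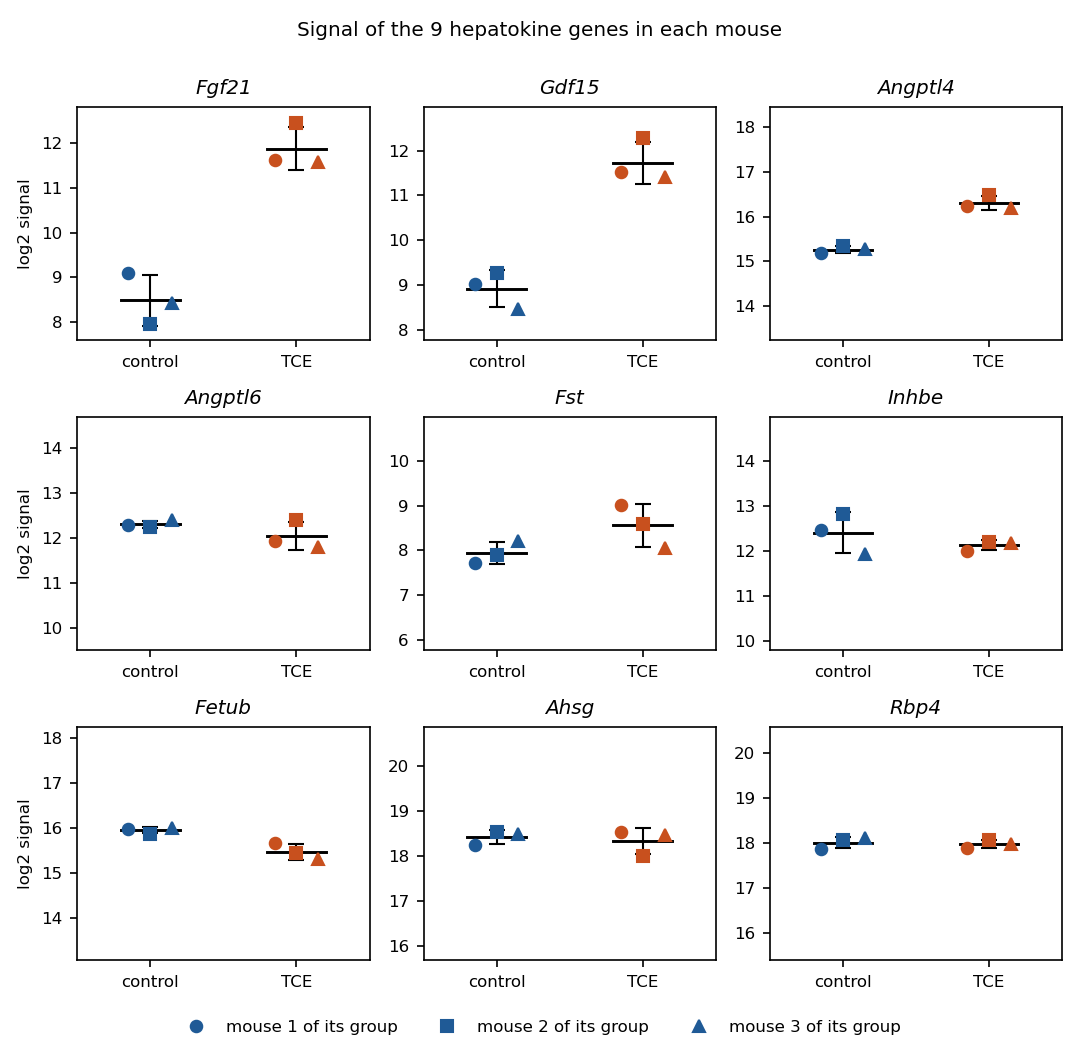
Log2 signal of the 9 genes in each of the 3 control (blue) and 3 TCE (orange) mice, with the group mean (horizontal bar) and SD (error bar). Every panel spans the same number of log2 units, and the groups stand farthest apart for Fgf21 and Gdf15, with TCE mouse 2 (square) the highest mouse for both.

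Angptl6, a relative of Angptl4 that circulates as angiopoietin-related growth factor, did not pass the test. Its probe lies at chr9:20678326-20678385 of mm9, minus strand. Log2 signals were 12.29, 12.24 and 12.39 in control mice and 11.94, 12.39 and 11.79 in TCE mice. TCE mouse 2 reached the control mice and the other TCE mice were below them. The log2 difference was -0.26 with a 95% confidence interval of -0.69 to 0.16 (limma adjusted p = 0.49), an interval that does not reach a 2-fold change in either direction.

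Fst, which encodes follistatin, the secreted binder of activins, lay higher on average in TCE mice without passing the test. The probe matches chr13:115243565-115243624 of mm9, minus strand. Log2 signals were 7.72, 7.90 and 8.20 in control mice and 9.02, 8.59 and 8.06 in TCE mice. The groups overlapped, since TCE mouse 3 was below control mouse 3. The means were 7.94 ± 0.24 and 8.56 ± 0.48 (SD, n = 3 each), a difference of 0.62 with a 95% confidence interval of -0.02 to 1.25 (limma adjusted p = 0.293). This interval includes 0 and also a 2-fold rise. With 1 mouse left out the difference ranged from 0.38, without TCE mouse 1, to 0.86, without TCE mouse 3.

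Inhbe encodes the beta E subunit of activin E, a liver-derived ligand of the same family that acts on fat. It was measured at chr10:126786719-126786778 of mm9, minus strand. Log2 signals were 12.45, 12.83 and 11.93 in control mice and 11.99, 12.21 and 12.16 in TCE mice. All TCE values lay inside the range of the control mice. The difference was -0.28 with a 95% confidence interval of -0.85 to 0.28 (limma adjusted p = 0.577). It was -0.07 without control mouse 2 and -0.52 without control mouse 3, and neither passed the test.

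Fetub and Ahsg encode fetuin-B, an inhibitor of the protease ovastacin, and fetuin-A, a carrier of calcium phosphate that also inhibits the insulin receptor. The genes are neighbours on chromosome 16 of mm9, and their probes, at chr16:22939736-22939795 and chr16:22899415-22899474 on the plus strand, lie 40.3 kb apart. Fetub had log2 signals of 15.99, 15.87 and 16.00 in control mice and 15.66, 15.44 and 15.31 in TCE mice. Every TCE mouse was below every control mouse, by at least 0.21, as was the case in this direction for 10.2% of all probes tested. The means were 15.95 ± 0.07 and 15.47 ± 0.18 (SD, n = 3 each). The log2 difference was -0.48 with a standard error of 0.13 and a 95% confidence interval of -0.80 to -0.17, or 71.5% of the control level (limma adjusted p = 0.137). It was under 2-fold and did not pass the test. The summed hepatocyte markers, given above, were also lower in all TCE mice than in the control mice, although Tat and Hnf4a of that list were higher on average. The part of the hepatocyte markers in the value of Fetub was not tested.

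For Ahsg the log2 signals were 18.25, 18.55 and 18.50 in control mice and 18.55, 18.00 and 18.46 in TCE mice. TCE mouse 2 had the lowest signal and the other TCE mice lay among the control mice. The difference was -0.10 with a 95% confidence interval of -0.53 to 0.34 (limma adjusted p = 0.824), and it was 0.071 without TCE mouse 2. The difference between the changes of the 2 fetuin genes was not tested.

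Rbp4 encodes the plasma carrier of retinol, which is also released by fat. The probe matches chr19:38191120-38191179 of mm9, minus strand. Log2 signals were 17.87, 18.06 and 18.11 in control mice and 17.90, 18.06 and 17.98 in TCE mice, so that all TCE mice lay inside the range of the control mice. The difference of -0.03 had a 95% confidence interval of -0.33 to 0.26 (limma adjusted p = 0.914), the narrowest interval among the 9 genes. It was 0.013 with normexp background correction, 0.015 without control mouse 3 and 0.0070 without TCE mouse 1.

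**Figure D2:**
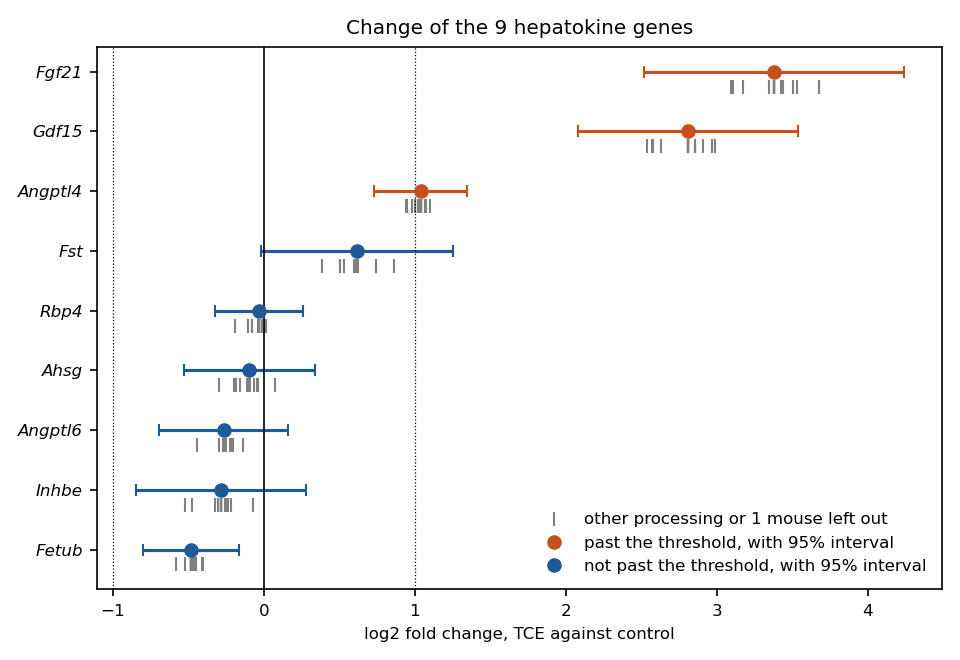
Log2 fold change of TCE against control for each gene with its 95% confidence interval. Orange marks the 3 genes past the threshold and blue the 6 that were not, grey ticks give the same value under other processing or with 1 mouse left out, and dotted lines mark a 2-fold change in either direction. The ticks of Fgf21 run from 3.10 to 3.68, those of Gdf15 from 2.54 to 2.99 and those of Angptl4 from 0.94 to 1.10.

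Set side by side, the groups did not overlap for 4 of the 9 genes, 3 with higher and 1 with lower signal in TCE mice, and overlapped for 5. Of all probes tested, 25.7% did not overlap, 15.5% with higher and 10.2% with lower signal. In the exact permutation test over the 6 mice (two-sided, 20 ways to choose 3 of 6), each of the 4 genes reached p = 0.1, the smallest value that 3 against 3 mice allow. For the other members this p was 0.2 for Fst, 0.4 for Angptl6 and Inhbe, 0.6 for Ahsg and 0.7 for Rbp4. Within the shared slide the log2 differences of the genes that did not pass were -0.27 for Angptl6, 0.51 for Fst, -0.26 for Inhbe, -0.47 for Fetub, -0.18 for Ahsg and -0.11 for Rbp4, and none passed the test. After normalization, the order of the mice within the TCE group was the same for Fgf21, Gdf15 and Angptl4, with mouse 2 highest and mouse 3 lowest. Angptl6, which did not pass the test, had that order too. Fst did not have it, with TCE mouse 1 the highest. Before normalization Angptl4 had another order, with processed intensities of 87004.5, 80027.2 and 91107.4 in TCE mice 1 to 3. The share of all genes with the shared order was not determined.

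**Figure D3:**
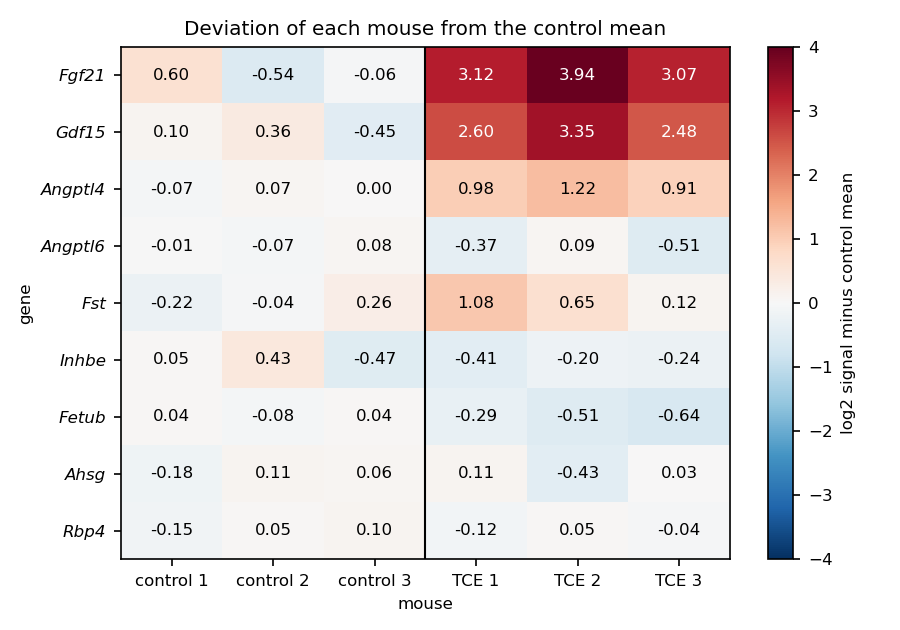
Log2 signal of each gene in each mouse minus the mean of the 3 control mice, written in each cell and shown in colour (red higher, blue lower). The 3 upper rows are higher in all TCE mice, up to 3.94 for Fgf21 in TCE mouse 2, while the lower 6 rows stay within 1.08 of the control mean.

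As a description of likeness to the 3 genes that rose, the genes with the smallest root mean square difference over the 6 mice were found, each gene centred on its control mean. This describes likeness over 6 mice of 2 groups and is met by genes with a change of like size. Closest to Fgf21 were Rufy4 (0.31), which stayed at background level in all control mice and was at least 5.31-fold higher in TCE mice, and Acot1 (0.33), an acyl-CoA thioesterase with a log2 fold change of 3.16. Closest to Gdf15 were Krt23 (0.25), a keratin with a log2 fold change of 2.70, and D330045A20Rik (0.31), likewise at background level in the control mice and at least 1.47-fold higher. Closest to Angptl4 were Decr1 (0.06), the mitochondrial 2,4-dienoyl-CoA reductase of fatty acid oxidation with a log2 fold change of 1.02, and Nceh1 (0.08), a cholesterol ester hydrolase with 0.98, which was under 2-fold and so not past the threshold (limma adjusted p = 0.0302). The values in brackets are the root mean square differences on the log2 scale. Those of Rufy4 and D330045A20Rik rest on control values at background level and so do not measure likeness well. With 1 mouse left out at a time, Rufy4 and D330045A20Rik were past the threshold in 6 of 6 fits. These fits took the control values at background level as measured, so the count cannot be compared with those of the other genes. The bound of D330045A20Rik, 1.47-fold, is itself under 2-fold. Acot1 was past the threshold in 3 fits, losing the call without control mouse 2, control mouse 3 or TCE mouse 3. Krt23 was past it in 2, without TCE mouse 1 or TCE mouse 2, and Decr1 in 0, with log2 fold changes of 0.89 to 1.09. With normexp background correction the log2 fold change was 1.44 for Rufy4, which stayed past the threshold, again with control values at background level. It was 0.68 for D330045A20Rik and 0.96 for Decr1, both under 2-fold.

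The receptors, partners and carriers of these hormones, and other proteins secreted by the liver, were followed in 7 lists of 94 genes, of which 70 were detected. Of these, 2 rose (Rdh16 and Igfbp1), 0 fell and 68 were not past the threshold, which is 2.86% called against 1.73% of all genes by their brightest probe. Without adjustment, 16 of the 68 had a limma p under 0.05, 6 with higher and 10 with lower signal in TCE mice, beside 2539 of all 13284 genes, called genes included. The groups did not overlap for 21 genes (30%), 9 higher and 12 lower, against 27.9% of all genes. The median log2 fold change was -0.05, against 0.02 over all genes.

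**Figure D4:**
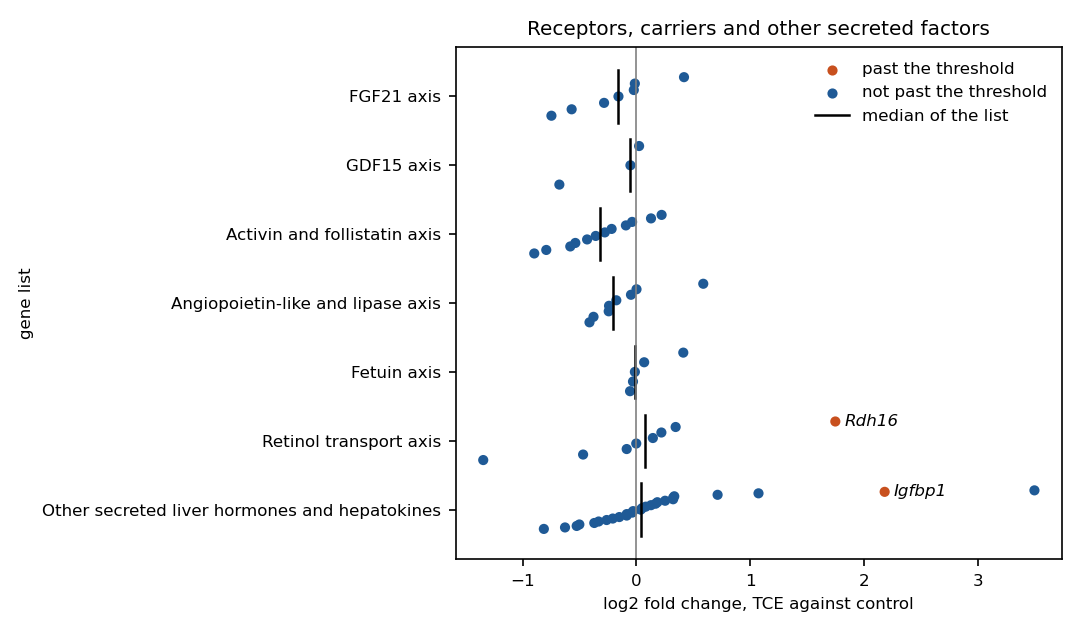
Log2 fold change of TCE against control for the 70 detected genes of the 7 lists, 1 point a gene, with the median of each list as a black bar. Orange marks Rdh16 (1.75) and Igfbp1 (2.18), which were past the threshold. Within a list the points are spread vertically only to keep them apart, and the rightmost blue point, Lcn2 at 3.50, was not past the threshold.

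The FGF21 axis comprised FGF receptors, Klotho co-receptors, related endocrine FGFs and the protease that cleaves FGF21. Of 10 genes 7 were detected, 0 were past the threshold, and the median log2 fold change was -0.16. Klb, the beta-Klotho co-receptor that FGF21 needs, was at 10.42 ± 0.53 in control and 10.40 ± 0.19 in TCE mice (SD, n = 3 each), a log2 difference of -0.01 with a 95% confidence interval of -0.68 to 0.65 (limma adjusted p = 0.986). The largest differences were those of Fgfr3 (-0.75, standard error 0.20, limma adjusted p = 0.138) and of Fgfr4, the main FGF receptor of hepatocytes (-0.57, standard error 0.11, limma adjusted p = 0.072). The groups did not overlap for either, with all TCE mice lower, and the second detected probe was also lower for both genes, at -0.94 for Fgfr3 (limma adjusted p = 0.0314, under 2-fold) and -0.23 for Fgfr4 (limma adjusted p = 0.567). Kl, Fgf15 and Fap were not well above background in all mice of either group.

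Of the 5 genes of the GDF15 axis, the receptor gene Gfral and its co-receptor gene Ret were not detected in the liver. The 3 detected genes encode proprotein convertases, and 0 of them were past the threshold, with a median log2 fold change of -0.05. Pcsk6 differed by -0.68 ± 0.48 (SE, limma adjusted p = 0.515), where TCE mouse 2 had a log2 signal of 10.54 and the other TCE mice 11.81 and 12.39. Without TCE mouse 2 the difference was -0.16. Furin, the most widely expressed convertase, differed by -0.05 ± 0.12 (SE, limma adjusted p = 0.855).

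The activin and follistatin axis held inhibin subunits, activin receptors, SMAD proteins and binding proteins beside Fst and Inhbe. Of 16 genes 12 were detected and 0 were past the threshold. The median log2 fold change was -0.32, the lowest of the 7 lists. The groups did not overlap for 3 genes with lower and 1 gene with higher signal in TCE mice. That is 33.3% of the detected genes of the list, against 27.9% of all genes. Inhba, the subunit of activin A, had log2 signals of 10.30, 9.75 and 10.97 in control and 9.12, 9.59 and 9.62 in TCE mice. All TCE mice were lower, and the difference of -0.90 with a standard error of 0.32 did not pass the test (limma adjusted p = 0.226). Inhbb, the subunit of activin B, differed by -0.79 ± 0.40 (SE, limma adjusted p = 0.36) and its groups overlapped. With 1 mouse left out Inhba ranged from -1.19 to -0.58 and Inhbb from -1.20 to -0.45, and neither passed the test. Fstl3, Inha, Acvr1c and Bambi were not detected.

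In the angiopoietin-like and lipase axis, which held the lipases that ANGPTL proteins inhibit and the Tie receptors, 8 of 12 genes were detected, 0 were past the threshold and the median was -0.21. Lpl, the lipoprotein lipase that ANGPTL4 inhibits, had log2 signals of 11.56, 11.43 and 10.90 in control and 11.69, 11.71 and 12.25 in TCE mice. The TCE mice were all higher, by 0.59 on average with a standard error of 0.24, without passing the test (limma adjusted p = 0.27). Tek, the endothelial angiopoietin receptor, differed by -0.41 ± 0.27 (SE, limma adjusted p = 0.483), and by -0.12 without TCE mouse 1. The summed signal of sinusoidal endothelial markers ran from 13.64 to 14.61 in TCE mice and from 14.49 to 14.54 in control mice, and its part in the value of Tek was not tested.

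Relatives of the fetuins in the cystatin superfamily, with the insulin receptor and Tlr4, were detected for 5 of 7 genes, with 0 past the threshold and a median of -0.01. Cst3, which encodes cystatin C, differed by 0.41 with a standard error of 0.10 and all TCE mice were higher (limma adjusted p = 0.114). Kng2, a kininogen gene, differed by 0.07 ± 0.19 (SE, limma adjusted p = 0.89).

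In the retinol transport axis 8 of 11 genes were detected and 1 rose, with a median of 0.07. Rdh16, a microsomal dehydrogenase that oxidizes retinol and steroids, had log2 signals of 10.84, 10.61 and 10.67 in control and 12.36, 12.35 and 12.65 in TCE mice. Group means were 10.70 ± 0.12 and 12.45 ± 0.17 (SD, n = 3 each), a rise of 1.75 ± 0.14 on the log2 scale or 3.36-fold (SE, limma adjusted p = 0.00439). The call was kept with any 1 mouse left out, with log2 fold changes from 1.65 to 1.81. Ttr, which encodes transthyretin, the partner of RBP4 in plasma, differed by 0.14 with a 95% confidence interval of -0.15 to 0.44 (limma adjusted p = 0.592).

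Among 33 other hormones and hepatokines of the liver, 27 were detected, 1 rose and 0 fell, with a median of 0.04. Igfbp1, a secreted binder of insulin-like growth factors that insulin represses, had log2 signals of 13.55, 13.10 and 13.23 in control and 16.17, 14.99 and 15.26 in TCE mice. Every TCE mouse was above every control mouse. Group means were 13.29 ± 0.23 and 15.47 ± 0.62 (SD, n = 3 each), a rise of 2.18 ± 0.32 on the log2 scale or 4.53-fold (SE, limma adjusted p = 0.0301). Here TCE mouse 1 was the highest and TCE mouse 2 the lowest. The log2 fold change of Igfbp1 was 2.31 within the shared slide, which leaves out control mouse 1 (limma adjusted p = 0.083), 2.08 without control mouse 2 (limma adjusted p = 0.126), 2.15 without control mouse 3 (limma adjusted p = 0.105) and 2.29 without TCE mouse 3 (limma adjusted p = 0.0667). Without TCE mouse 1 or 2 the call held.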

How the data were processed

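Liver RNA of 3 control and 3 TCE mice was measured on 1-colour Agilent arrays, 1 array a mouse. Per the submitters' processing notes, Agilent Feature Extraction 10.7.1.1 was used, and the deposited scanner output gives for each spot a processed intensity after background subtraction, the mean and background intensity, and quality flags. A further deposited table holds, for each group, the mean raw intensity and the mean quantile-normalized log2 value, with annotation on mm9. 6 columns of flags for single arrays in that table were not used, since their names could not be tied to 1 sample each.

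The processed intensity of 59305 spots that are not controls was put on the log2 scale without a pseudocount. Outlier-flagged spots (123 to 189 per array) were set to missing, repeated spots were averaged within probes, and quantile normalization followed. Group means lay within 0.01 of the authors' deposited log2 means for 99.98% (control) and 99.97% (TCE) of probes. Between 23538 and 24968 probes per array were well above background and 0 spots were saturated. Arrays correlated at 0.987 to 0.99 within the control group (Pearson's r), at 0.978 to 0.987 within the TCE group and at 0.971 to 0.982 across groups. The number of arrays limits the precision.

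Of 55681 probes, the 22731 that were well above background in all 3 mice of a group were tested (two-sided) with lmFit and eBayes of limma 3.58.1, run in R 4.3.3 with the packages jsonlite 2.0.0 and data.table (version 1.17.8), with Benjamini-Hochberg adjustment over all of them. Intervals are 95% intervals of that fit. A list gene was represented by its brightest detected probe. A probe not well above background in a group is given as a lower bound against the lowest signal well above background on each array. The script was checked on simulated data.

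Named are all members, of each list the genes past the threshold or otherwise the 2 with the largest difference, and for each member that rose the 2 most similar genes. The members and the lists were chosen with earlier results of these data known. Klb and Ttr were named in addition, as partners of members, after their values were seen, as were the genes in the closing section. The alternatives were scaling to the 75th percentile, normexp with an offset of 50, no filter or a stricter one on dim probes, flagged spots retained, replicate number or slide as a block, array weights, a trended robust variance, the methods' t-test, no limit on fold change, averaged probes, the deposited group means and each mouse left out. Promoters were read from RefSeq windows on GRCm38.p6, and no coordinates were converted between builds. Other doses, qPCR, western blots and methylation were not analysed here, and 1 list gene is not reported by name.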

Additional observations from a re-analysis of the deposited data

How the results depend on the processing

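Fgf21, Gdf15 and Angptl4 were higher in TCE mice under all 20 alternatives. Fgf21 was past the threshold in 15 of the 19 that carry a test (adjusted p 0.00423 to 0.1), Gdf15 in 17 (0.00395 to 0.0869) and Angptl4 in 8 (0.0049 to 0.0965). These counts are not of independent fits. The slide block and the fit without control mouse 1 are the same fit counted separately, and 1 of the 19 is the t-test without adjustment. The number of members past the threshold, 3, became 0 without a filter on dim probes, where all 3 had adjusted p of 0.0659 to 0.0825 and 96 probes in all were called. It was 0 by the methods' t-test with Benjamini-Hochberg adjustment, against 3 without adjustment, and 1 to 3 with 1 mouse left out (1 without control mouse 3). Angptl4 was under 2-fold with normexp (0.94) and array weights (0.98). The number of list genes past the threshold, 2, became 1 without the filter, 1 with the slide as a block, 4 with trended robust variance, 5 with array weights, 5 by the methods' t-test without and 0 with adjustment, 4 with averaged probes and 1 to 3 with 1 mouse left out. All probes called numbered 321, against 63 with the replicate block, 96 without the filter, 177 with the slide block, 35 and 594 by the methods' t-test with and without adjustment, and 126 to 272 with 1 mouse left out.

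With the replicate number as a block, 1 member was past the threshold (Gdf15, adjusted p = 0.0247; Fgf21 0.1, Angptl4 0.0965) and 0 list genes (Rdh16 0.064, Igfbp1 0.0662, all by limma). Deviations of mice with the same number correlated at 0.0897, 0.00656 and -0.0916, so the numbers were not taken as pairs.

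Signs turned only for values near 0. Rbp4 was 0.013 with normexp and -0.11 to 0.015 with 1 mouse left out (0.015 without control mouse 3, 0.0070 without TCE mouse 1). Ahsg was -0.20 to 0.071 with 1 mouse left out (0.071 without TCE mouse 2), and Kng2 -0.088 to 0.16 (-0.088 without control mouse 2, -0.069 without TCE mouse 1). A fit without 1 mouse leaves 2 in a group. Genes at background level in a group have only a bound.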

Other observations

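Some genes of the lists that fall outside the rule for named genes, chosen after their values were seen, are given here. Lcn2, which encodes the siderophore-binding protein lipocalin 2, had log2 signals of 8.55, 8.88 and 8.29 in control and 13.42, 10.40 and 12.40 in TCE mice. All TCE mice were higher, yet they spread over 3 log2 units, and the difference of 3.50 ± 0.72 did not pass the test (SE, limma adjusted p = 0.0752). Fgl1, a liver-secreted ligand of LAG-3, differed by 1.07 ± 0.19 (SE, limma adjusted p = 0.0525), and its 3 probes gave 1.07 to 1.26. Enho, which encodes the peptide adropin, differed by -0.81 (limma adjusted p = 0.0408), under 2-fold, and its second probe gave -0.96. All 5 probes of Igf1, the main endocrine growth factor of the liver, were lower in TCE mice by -0.39 to -0.80, and the brightest gave -0.50 ± 0.13 (SE, limma adjusted p = 0.117). Igfbp2, a binder of insulin-like growth factors, differed by 0.71 ± 0.19 (SE, limma adjusted p = 0.128), with all TCE mice higher and 2 probes at 0.64 and 0.71. Lect2, a hepatokine that binds the MET receptor, differed by -0.63 ± 0.12 (SE, limma adjusted p = 0.0593). Lrat, the lecithin-retinol acyltransferase of stellate cells, differed by -1.35 ± 0.27 (SE, limma adjusted p = 0.0676). It is one of the 7 detected stellate cell markers, of which 0 were past the threshold. Of the others, Reln (-1.34), Colec11 (-0.25), Ecm1 (-0.17) and Pdgfrb (-0.17) were lower, while Col1a1 (0.25) and Dcn (0.01) were higher. The part of stellate cells in the value of Lrat was not tested. Some of the list genes given here passed the threshold under alternatives. Fgl1 did so with 75th percentile normalization, normexp, a filter requiring all 6 arrays, trended robust variance, array weights and the methods' t-test without adjustment. Lrat did so with trended robust variance, array weights, averaged probes and the t-test without adjustment, and Lcn2 with array weights, that t-test and without TCE mouse 2.

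The probes of Lepr, the leptin receptor gene, disagreed. The brightest, annotated to transcript variant 2, had means of 10.97 in control and 10.89 in TCE mice (log2 difference -0.09, limma adjusted p = 0.909). A second probe annotated to that variant stayed at background level in all control mice and was at least 6.70-fold higher in TCE mice (measured means 3.61 and 7.53, limma adjusted p = 0.022). A probe annotated to variant 3 was likewise at background level in all control mice and at least 3.22-fold higher (3.31 and 6.47, limma adjusted p = 0.0103). Both probes at background level in the control mice were tested only because they were well above background in the TCE mice. Their adjusted p took the control values at background level as measured, so it is no support for the change. The remaining probe, annotated to variant 1, stayed at background level in all 6 mice. The soluble leptin receptor is released by the liver, and which transcripts each probe takes up was not tested.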
